A study of Mus musculus with 12 samples.

Results

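The 43 genes described here drive or mark mitosis. They encode the cyclins and kinases that start it, the kinetochore, the spindle and the cytokinesis machinery, and the transcription factors that switch these genes on and off. They form a list named by function, drawn up with earlier results of these data known, and all 43 were found among the 53715 genes counted. RNA was sequenced from 12 bulk libraries of mouse liver cells of the C57BL/6JOlaHsd strain, in 4 biological replicates for each of 3 groups. The hepatoblasts were taken from livers of E14.5 embryos by magnetic sorting on Dlk1, a surface protein of these bipotent liver progenitors, and lysed at once. The Diff. hepatocytes came from such E14.5 Dlk1+ cells kept for 4 days on fibronectin in a differentiation medium that held dexamethasone and Matrigel. The mature hepatocytes were freshly isolated by collagenase perfusion from male mice of 8 to 12 weeks. Each hepatoblast preparation pooled several embryonic livers, magnetic sorting enriches Dlk1+ cells without making them pure, and the labels name no transgene or mutation in any group.

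A cell enters mitosis when the kinase Cdk1, held by cyclin A or B, is freed of its inhibitory phosphates by Cdc25 phosphatases. The spindle checkpoint then keeps Cdc20 from switching on the anaphase-promoting complex, a ubiquitin ligase, until every kinetochore holds microtubules, after which cyclin B and securin are destroyed and the chromatids part. Hepatoblasts of the embryonic liver divide quickly beside blood-forming cells, while adult hepatocytes rarely divide and are often polyploid or binucleate.

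Counts on genes lay between 19581551 and 25216977 per library, and libraries within a group differed by more than counting error. Levels are given as CPM, counts divided by library sizes that were scaled by the TMM method. Dlk1 had 2461 to 4199 CPM in hepatoblasts, while Diff. hepatocytes had 88.3 to 99.1 CPM and mature hepatocytes 3.17 to 6.42 CPM. Cps1, an enzyme of the urea cycle, had 16.7 to 29.9 CPM in hepatoblasts, and Diff. and mature hepatocytes had 5298 to 6190.0 CPM and 5264 to 6850.2 CPM. Of 12 hepatoblast and hepatocyte markers, Diff. hepatocytes had 6 called lower and 2 higher than mature hepatocytes, where 15.6% and 20.2% of all genes tested were. Afp, the fetal serum protein, had 15959 to 20419 CPM in Diff. against 32.0 to 58.1 CPM in mature hepatocytes, and the adult enzyme gene Cyp3a11 had 337 to 382 against 2811 to 4774 CPM. A pair of libraries stood apart. Hepatoblast replicate 1 had a summed level of 14 erythroid markers of 3745 CPM against 533 to 821 CPM in the other hepatoblast libraries, and of 10 early haematopoietic and granulocytic markers of 404 CPM against 35.1 to 59.3 CPM. Diff. hepatocyte replicate 1 had a summed level of 9 mesenchymal markers of 2958 CPM against 1217 to 2002 CPM in the other Diff. hepatocyte libraries, and of 7 bile duct markers of 286 CPM against 92.3 to 134 CPM. The summed level, the counts of called genes and the changes of some single genes are also given without these libraries. All other fold changes use all libraries.

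Nearly all of the mitotic genes fell between hepatoblasts and both kinds of hepatocyte. In Diff. hepatocytes 42 of the 43 genes were called lower than in hepatoblasts and none higher, where 14% of the 17779 genes tested were called lower. A call required a Benjamini-Hochberg adjusted p under 0.01 over all tested genes, from the quasi-likelihood test of edgeR, and an absolute log2 fold change over 1. In mature hepatocytes 42 of 43 were again called lower, where 24.7% of all tested genes were. Bub3 was the exception in both comparisons, which share the 4 hepatoblast libraries as their control. Over the 43 genes the log2 fold change had a median of -3.60 in Diff. hepatocytes, beside -0.01 for all tested genes, and -5.74 in mature hepatocytes, beside -0.15 for all. For each of the 43 genes every hepatoblast library lay above every Diff. hepatocyte library and above every mature library, a separation seen for 28.8% and 35.9% of all tested genes. In bulk RNA, fewer cells that carry a transcript and less of it per cell cannot be told apart. Most erythroid and most early haematopoietic and granulocytic markers fell in the same comparisons. Of 14 erythroid markers 13 were called lower in Diff. and 13 in mature hepatocytes, with 1 called higher in the latter (medians -6.02 and -9.54), and their sum was 533 to 3745 CPM in hepatoblasts, 85.6 to 116 CPM in Diff. and 179 to 219.9 CPM in mature hepatocytes, where Epb42 and Gata1 were at 0 in every library. Of 10 early haematopoietic and granulocytic markers 7 and 6 were called lower (medians -3.52 and -4.01), and their sum was 35.1 to 404 CPM, 5.29 to 23.4 CPM and 11.3 to 17.98 CPM in the 3 groups, with Ctsg at 0 in every mature library. Other lists were mixed. In Diff. hepatocytes 6 of 9 endothelial and 4 of 12 macrophage markers were called lower. Higher were 5 of 7 bile duct, 3 of 9 mesenchymal and 1 macrophage marker. In mature hepatocytes 6 of 6 megakaryocyte, 7 of 9 mesenchymal, 2 of 7 bile duct and 1 macrophage marker were lower. Higher were 4 of 9 endothelial, 2 macrophage, 1 mesenchymal and 1 bile duct marker. Of all tested genes 14.9% and 20.1% were called higher. The part of these lists in the fall of the mitotic genes was not tested.

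Summed over the 43 genes, the level in the 4 hepatoblast libraries was 4231, 3278, 3068 and 2974 CPM. The same sum was 440 CPM in Diff. hepatocyte replicate 1 and 234, 237 and 224 CPM in the other replicates, and it was 134, 146, 138 and 116 CPM in mature hepatocytes. The groups did not overlap, and replicate 1 was the highest library of both groups from embryonic cells. The mean sum was 3388 ± 576 CPM (SD, n = 4) for hepatoblasts, 284 ± 104 CPM (SD, n = 4) in Diff. hepatocytes and 134 ± 12.6 CPM (SD, n = 4) in mature hepatocytes, a ratio of 11.9 between the first 2 groups and of 2.12 between Diff. and mature hepatocytes. Without replicate 1 the hepatoblast mean was 3107 ± 155 CPM and the Diff. hepatocyte mean 232 ± 6.65 CPM (SD, n = 3 each). As a share of all counts on genes, the 43 genes took 0.367 to 0.610% in hepatoblasts, 0.0233 to 0.0475% in Diff. hepatocytes and 0.00787 to 0.0113% in mature hepatocytes. The median gene kept 8.25% of its mean hepatoblast CPM in Diff. hepatocytes and 1.88% in mature hepatocytes.

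**Figure D1:**
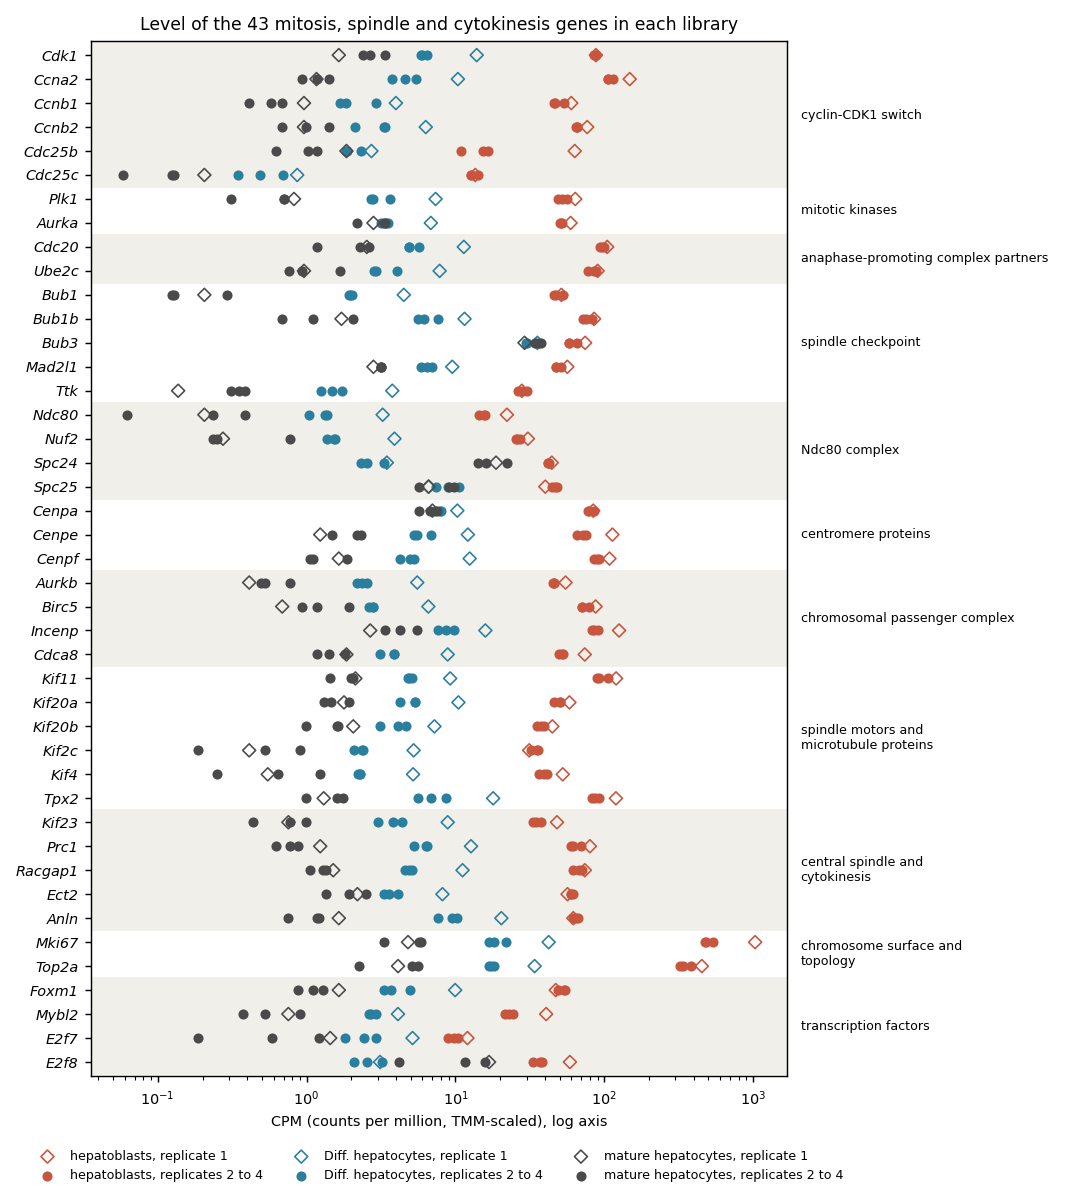
Level of each of the 43 genes in each of the 12 libraries, in CPM on a log axis, with genes grouped by role, points coloured by group and replicate 1 of each group drawn as an open diamond. Hepatoblast points lie to the right of all other points in every row. Diff. hepatocyte points sit between the other groups in most rows, but Spc24 and E2f8 have their mature points on the right of the Diff. points, and the Bub3 points of the Diff. and mature hepatocytes overlap.

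In the paragraphs that follow, values per library are CPM in the order of replicates 1 to 4, fold changes are log2 ± the standard error of the fit over 4 libraries a group, and adjusted p-values come from the same edgeR test and adjustment.

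The cyclin and Cdk1 genes, which form the switch for mitotic entry, were all called lower in both kinds of hepatocyte. Ccna2, the cyclin of S phase and early mitosis and the highest of the 6 in CPM, had 148, 114, 105 and 106 in hepatoblasts, 10.4, 5.47, 3.73 and 4.59 in Diff. hepatocytes and 1.17, 1.41, 1.17 and 0.931 in mature hepatocytes. The 3 groups were separate, with hepatoblast replicate 1 and Diff. hepatocyte replicate 1 the highest of their groups. Its log2 fold change against hepatoblasts was -4.29 ± 0.27 in Diff. and -6.65 ± 0.32 in mature hepatocytes. Cdk1, the kinase itself, had 87.7, 87.6, 86.1 and 84.8 in hepatoblasts, 13.9, 5.90, 6.40 and 5.92 in Diff. hepatocytes and 1.65, 3.34, 2.39 and 2.67 in mature hepatocytes. The hepatoblast libraries differed little among themselves, while Diff. hepatocyte replicate 1 was 2.29 times the mean of the others of its group. Cdk1 changed by -3.43 ± 0.26 in Diff. and -5.10 ± 0.29 in mature hepatocytes. Cdc25c, a phosphatase that activates Cdk1, had the largest change in Diff. hepatocytes, -4.47 ± 0.25, from 13.6, 14.1, 12.8 and 12.7 to 0.865, 0.344, 0.489 and 0.690. In mature hepatocytes it had 3, 2, 1 and 2 counts, and the ratio of the hepatoblast to the mature level was 105, with a 95% interval from counting error alone of 53.4 to 245.

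The mitotic B cyclins moved alike in size. Ccnb1 changed by -4.29 ± 0.25 in Diff. and -6.29 ± 0.30 in mature hepatocytes, and Ccnb2 by -4.16 ± 0.26 and -6.07 ± 0.30. Of the 75-base sequences of Ccnb1 transcripts, 18.9% are shared with another gene, mainly the pseudogene Ccnb1-ps, so its counts are less certain. Cdc25b, a second Cdc25 phosphatase, had 63.2, 16.7, 15.3 and 10.97 in hepatoblasts, 2.72, 1.85, 1.87 and 2.32 in Diff. hepatocytes and 1.85, 1.03, 1.17 and 0.621 in mature hepatocytes. A single library held most of its hepatoblast level, since replicate 1 was 4.42 times the mean of the others. With all libraries the Cdc25b change was -3.60 ± 0.52 in Diff. and -4.51 ± 0.57 in mature hepatocytes, and without hepatoblast replicate 1 it was -2.70 and -3.63, still called in both. It was the only one of the 43 genes whose fold change moved by more than 1.5 times without that library. Over the 6 genes the largest adjusted p of edgeR's quasi-likelihood test was 5.17e-05 in Diff. and 8.56e-06 in mature hepatocytes.

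The kinases Plk1 and Aurka, which ripen the centrosomes and build the spindle poles, fell in both comparisons. Plk1 had 63.7, 56.1, 48.8 and 51.9 in hepatoblasts, 7.35, 2.80, 3.64 and 2.71 in Diff. hepatocytes and 0.823, 0.706, 0.700 and 0.310 in mature hepatocytes. Every group stood apart from the others. The Plk1 changes were -3.73 ± 0.28 and -6.43 ± 0.36 (adjusted p 1.33e-07 and 2.63e-09, edgeR's quasi-likelihood test). Aurka had 59.3, 50.5, 52.0 and 51.4 in hepatoblasts, 6.83, 3.14, 3.51 and 3.40 in Diff. hepatocytes and 2.81, 3.34, 3.33 and 2.17 in mature hepatocytes. Here the Diff. and mature libraries overlapped, and both lay far under the hepatoblasts, with changes of -3.65 ± 0.22 and -4.19 ± 0.24 (adjusted p 2.16e-08 and 3.05e-09, edgeR's quasi-likelihood test).

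Partners of the anaphase-promoting complex fell as well. Cdc20, its mitotic activator, had 104, 96.6, 100.03 and 93.8 in hepatoblasts, 11.4, 4.86, 5.69 and 4.88 in Diff. hepatocytes and 2.54, 2.63, 2.28 and 1.18 in mature hepatocytes. Ube2c, the ubiquitin-conjugating enzyme that works with the complex, had 90.1, 87.3, 85.3 and 78.0 in hepatoblasts, 7.83, 2.84, 4.04 and 2.91 in Diff. hepatocytes and 0.960, 1.67, 0.759 and 0.931 in mature hepatocytes. Both genes separated all 3 groups, and in Diff. hepatocytes replicate 1 was again the highest. Cdc20 changed by -3.88 ± 0.26 in Diff. and -5.52 ± 0.30 in mature hepatocytes, and Ube2c by -4.27 ± 0.28 and -6.30 ± 0.34 (adjusted p at most 4.98e-08, edgeR's quasi-likelihood test). Per length, Cdc20 was the second highest of the 43 genes in hepatoblasts at 52.9 RPKM (CPM per kilobase of exon), after Mki67 at 62.6 RPKM.

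The spindle checkpoint genes held both the largest and the smallest changes of the list in mature hepatocytes. Bub1, a checkpoint kinase at the kinetochore, had 51.4, 53.0, 47.2 and 45.6 in hepatoblasts, 4.496, 2.02, 1.95 and 1.92 in Diff. hepatocytes and 0.206, 0.128, 0.292 and 0.124 in mature hepatocytes, the last from 3, 2, 5 and 2 counts. The groups were far apart, and the change was -4.24 ± 0.24 in Diff. and -7.99 ± 0.35 in mature hepatocytes, where its size is limited by these few counts. Bub1b, which with Cdc20, Mad2 and Bub3 makes up the mitotic checkpoint complex, had the highest hepatoblast level of the 5 genes, 85.3, 82.6, 75.5 and 71.5, against 11.5, 7.58, 6.13 and 5.57 in Diff. and 1.71, 2.05, 1.11 and 0.683 in mature hepatocytes. No library of one group reached another, and the changes were -3.35 ± 0.24 and -5.83 ± 0.29. Mad2l1, the gene of Mad2, changed by -2.81 ± 0.14 and -4.04 ± 0.15, and Ttk, the kinase Mps1 that recruits the others, by -3.76 ± 0.28 and -6.53 ± 0.37. For these 4 genes the largest adjusted p was 1.38e-07 (edgeR's quasi-likelihood test, Diff. hepatocytes).

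Bub3 (ENSMUSG00000066979, chromosome 7, 131560222 to 131571895, GRCm38) stayed closest to its hepatoblast level. It binds phosphorylated kinetochore protein and brings Bub1 and Bub1b there. Its levels were 74.2, 65.3, 58.1 and 57.9 in hepatoblasts, 35.5, 30.4, 34.7 and 29.8 in Diff. hepatocytes and 29.1, 36.1, 37.7 and 34.1 in mature hepatocytes. Each hepatoblast library was above all others, and the Diff. and mature libraries overlapped. Its change of -0.97 ± 0.11 in Diff. hepatocytes (adjusted p 5.12e-06, edgeR's quasi-likelihood test) and -0.90 ± 0.11 in mature hepatocytes (adjusted p 5.74e-06) passed the p threshold but not the fold threshold. Without hepatoblast replicate 3, hepatoblast replicate 4 or Diff. hepatocyte replicate 1 the first of these was -1.02, -1.02 or -1.01 and was called. Per length, the ratio of Bub3 to Bub1 was 0.765 to 0.898 in the hepatoblast libraries, 4.90 to 11.03 in Diff. hepatocytes and 80.3 to 175 in mature hepatocytes.

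The 4 subunits of the Ndc80 complex, the rod by which a kinetochore grips microtubules, were called lower in both kinds of hepatocyte, by unequal amounts. Spc24 (ENSMUSG00000074476, chromosome 9, 21755442 to 21760303, GRCm38), which with Spc25 anchors the rod to the chromosome, had 44.3, 42.2, 41.9 and 41.9 in hepatoblasts, 3.46, 3.31, 2.53 and 2.32 in Diff. hepatocytes and 18.7, 16.0, 14.2 and 22.1 in mature hepatocytes. The mature libraries lay between the other groups and touched neither. Spc25 had 40.1, 48.1, 44.1 and 46.8 in hepatoblasts, 6.61, 10.5, 7.42 and 8.92 in Diff. hepatocytes and 6.58, 9.05, 5.66 and 9.81 in mature hepatocytes, where the last 2 groups overlapped. Spc24 changed by -3.87 ± 0.16 in Diff. and -1.26 ± 0.14 in mature hepatocytes, and Spc25 by -2.42 ± 0.18 and -2.53 ± 0.18 (adjusted p at most 2.79e-06 over the 4 subunits in mature hepatocytes, edgeR's quasi-likelihood test).

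The microtubule-binding end of the rod was near 0 CPM in mature hepatocytes. Ndc80 had 22.2, 15.9, 15.4 and 14.4 in hepatoblasts, 3.24, 1.03, 1.38 and 1.33 in Diff. hepatocytes and 0.206, 0.385, 0.233 and 0.0621 in mature hepatocytes, the last from 3, 6, 4 and 1 counts. Nuf2 had 30.6, 27.0, 25.8 and 25.5, 3.89, 1.55, 1.38 and 1.53 and 0.274, 0.770, 0.233 and 0.248 in the same order, the mature values from 4, 12, 4 and 4 counts. Both separated the groups, with changes of -3.27 ± 0.34 and -3.70 ± 0.32 in Diff. hepatocytes and of -6.23 ± 0.44 and -6.15 ± 0.40 in mature hepatocytes. Per length, the ratio of Spc24 to Nuf2 was 3.56 to 4.05 in the hepatoblast libraries, 2.19 to 5.27 in Diff. hepatocytes and 51.1 to 219 in mature hepatocytes, the last resting on the few Nuf2 counts. The ratio of Spc24 to Spc25, both with over 90 counts in each mature library, was 1.09 to 1.37, 0.322 to 0.648 and 2.19 to 3.52 in the 3 groups, which did not overlap. No annotated gene overlaps Spc24, and 2.36% of its 75-base sequences are shared with another gene.

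Centromere proteins fell in both comparisons. Cenpf, a large protein of the outer kinetochore, had 108, 91.9, 89.4 and 85.3 in hepatoblasts, 12.5, 5.29, 4.98 and 4.24 in Diff. hepatocytes and 1.65, 1.86, 1.11 and 1.06 in mature hepatocytes. Cenpa, the histone H3 variant that marks the centromere, had 84.1, 84.8, 79.3 and 77.2, 10.3, 7.96, 7.33 and 7.84 and 6.99, 7.51, 6.71 and 5.71 in that order. Cenpf separated all groups, while for Cenpa 1 Diff. library fell within the mature range. The changes were -3.79 ± 0.29 and -6.05 ± 0.35 for Cenpf, -3.28 ± 0.12 and -3.60 ± 0.12 for Cenpa, and -3.45 ± 0.27 and -5.48 ± 0.32 for Cenpe, the kinesin that carries chromosomes to the spindle equator. The largest adjusted p of the 3 genes was 2.25e-07 in Diff. hepatocytes (edgeR's quasi-likelihood test).

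The chromosomal passenger complex, which corrects faulty attachments and later acts at the midzone, fell as a whole. Incenp, its scaffold, had the highest level, with 125, 90.7, 85.7 and 82.0 in hepatoblasts, 15.9, 9.73, 8.66 and 7.59 in Diff. hepatocytes and 2.67, 4.24, 5.54 and 3.35 in mature hepatocytes. Birc5, the subunit survivin, had 87.3, 78.4, 71.1 and 70.6, 6.57, 2.80, 2.80 and 2.61 and 0.686, 1.93, 1.17 and 0.931. All 3 groups were separate for both genes. Incenp had the smallest change of the 4 subunits in Diff. hepatocytes, -3.19 ± 0.25, and Birc5 the largest, -4.37 ± 0.29, with -4.59 ± 0.27 and -6.02 ± 0.33 in mature hepatocytes. Aurkb, the kinase of the complex, changed by -3.91 ± 0.25 and -6.42 ± 0.32, and Cdca8, the subunit borealin, by -3.53 ± 0.29 and -5.19 ± 0.33 (adjusted p at most 2.58e-07 over the 4 subunits, edgeR's quasi-likelihood test).

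All 6 genes of spindle motors and microtubule proteins fell in both comparisons. Kif11, the kinesin that pushes the poles apart, had 119.9, 106, 89.7 and 92.5 in hepatoblasts, 9.21, 4.86, 5.11 and 4.83 in Diff. hepatocytes and 2.13, 2.05, 1.98 and 1.43 in mature hepatocytes. Kif20a, a kinesin of the midzone, had 58.2, 50.7, 50.6 and 45.8, 10.5, 4.26, 5.37 and 5.37 and 1.78, 1.93, 1.46 and 1.30. Neither had any overlap between groups. Kif11 changed by -4.08 ± 0.21 and Kif20a by -3.01 ± 0.23 in Diff. hepatocytes, with -5.75 ± 0.24 and -4.99 ± 0.27 in mature hepatocytes. Of the exon bases of Kif20a 29.3% overlap Cdc23 on the other strand, and such an overlap with a gene of the opposite strand also covers 22.8% of Ube2c, 15.1% of Kif4, 12.7% of Cdc25c, 12.5% of Ccna2 and 11.1% of Prc1. Kif20b, which acts in abscission, changed by -3.04 and -4.64, Kif2c, which trims microtubule ends, by -3.48 and -6.05, Kif4, a chromosome-bound kinesin, by -3.82 and -5.96, and Tpx2, which seeds spindle microtubules and activates Aurora A, by -3.28 and -6.06, all log2 (adjusted p at most 8.04e-07, edgeR's quasi-likelihood test).

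Genes of the central spindle and of cytokinesis were all called lower, with a median log2 fold change of -3.13 in Diff. hepatocytes and -5.72 in mature hepatocytes. Racgap1, which with Kif23 forms centralspindlin, was the highest in hepatoblasts, with 73.9, 71.1, 67.5 and 61.7, against 11.2, 4.61, 5.06 and 4.88 in Diff. and 1.51, 1.35, 1.28 and 1.06 in mature hepatocytes. Ect2, the exchange factor that activates RhoA at the furrow, had 56.6, 61.3, 59.4 and 59.5, 8.17, 4.09, 3.33 and 3.55 and 2.19, 2.503, 1.34 and 1.92. Anln, the scaffold anillin of the contractile ring, had 61.9, 66.5, 61.9 and 64.5, 20.3, 7.58, 10.2 and 9.42 and 1.65, 1.22, 1.17 and 0.745. The groups were separate for all 3 genes, and for Ect2 and Anln the hepatoblast libraries lay close together. Ect2 changed most of the 5 in Diff. hepatocytes, -3.62 ± 0.25, and Anln least, -2.42 ± 0.25, while in mature hepatocytes the changes were -4.90 ± 0.28 and -5.74 ± 0.32. Racgap1 changed by -3.41 ± 0.24 and -5.72 ± 0.29, Kif23 by -2.93 ± 0.29 and -5.69 ± 0.36, and Prc1, which bundles the midzone microtubules, by -3.13 ± 0.24 and -6.27 ± 0.31 (adjusted p at most 2.61e-06, edgeR's quasi-likelihood test).

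Mki67 and Top2a were the highest of the 43 genes in CPM. Mki67 (ENSMUSG00000031004, chromosome 7, 135689784 to 135716361, GRCm38), the proliferation antigen Ki-67 that coats mitotic chromosomes, had 1029, 533, 484 and 474 in hepatoblasts, 42.2, 21.7, 16.8 and 18.2 in Diff. hepatocytes and 4.80, 5.84, 5.66 and 3.29 in mature hepatocytes. Top2a, the topoisomerase that untangles sister chromatids, had 451, 381, 338 and 324, 34.0, 17.3, 18.1 and 16.7 and 4.11, 5.58, 5.14 and 2.23. All groups were apart, and hepatoblast replicate 1 was well above the others for Mki67 but less so for Top2a. Mki67 changed by -4.67 ± 0.36 in Diff. and -7.01 ± 0.41 in mature hepatocytes, while Top2a changed by -4.12 ± 0.28 and -6.45 ± 0.32 (adjusted p at most 1.61e-07, edgeR's quasi-likelihood test). Without hepatoblast replicate 1 the Mki67 change in Diff. hepatocytes was -4.32.

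The 4 transcription factors were called lower in both comparisons, and E2f7 changed least of them in Diff. hepatocytes. Foxm1, an activator of mitotic genes, had 47.1, 54.6, 53.1 and 49.1 in hepatoblasts, 9.94, 3.31, 4.98 and 3.70 in Diff. hepatocytes and 1.65, 1.28, 1.11 and 0.869 in mature hepatocytes, with changes of -3.21 ± 0.28 and -5.38 ± 0.34. Mybl2, which with the MuvB proteins activates the same class of genes, changed by -3.14 ± 0.25 and -5.42 ± 0.30, with 17.1% of its 75-base sequences shared with another gene. E2f7, an atypical E2F that represses cell cycle genes, had 12.0, 10.4, 9.81 and 8.85, 5.14, 1.81, 2.93 and 2.42 and 1.44, 1.22, 0.584 and 0.186. The groups did not overlap, yet the libraries of the Diff. and mature groups were spread widely, and its changes were -1.74 ± 0.38 and -3.59 ± 0.44. The largest adjusted p of all 43 genes against hepatoblasts was that of E2f7 in Diff. hepatocytes, 0.00154 (edgeR's quasi-likelihood test).

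E2f8 (ENSMUSG00000046179, chromosome 7, 48866429 to 48881596, GRCm38), the partner of E2f7 that is known for its part in hepatocyte polyploidy, had 58.7, 36.8, 38.0 and 33.3 in hepatoblasts, 3.11, 3.19, 2.09 and 2.56 in Diff. hepatocytes and 16.8, 11.6, 15.9 and 4.16 in mature hepatocytes. Its mature libraries lay between the other groups and differed among themselves more than those of most genes. The changes were -3.92 ± 0.37 in Diff. and -1.79 ± 0.33 in mature hepatocytes (adjusted p 9.74e-07 and 2.47e-04, edgeR's quasi-likelihood test). On the opposite strand Gm2788, a noncoding transcript, shares 610 exon bases with E2f8, 11.2% of its exon length. Gm2788 had 26, 23, 29 and 23 counts in hepatoblasts, 4, 1, 6 and 2 in Diff. hepatocytes and 770, 505, 857 and 241 in mature hepatocytes, where E2f8 had 245, 180, 272 and 67 counts. E2f8 thus stood at 0.278 to 0.356 counts for each Gm2788 count in the 4 mature libraries, and at 40.4 to 70.0 in hepatoblasts. The part of Gm2788 reads in the E2f8 counts was not tested, since the strand setting of the counts is not stated in the sources used here.

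**Figure D2:**
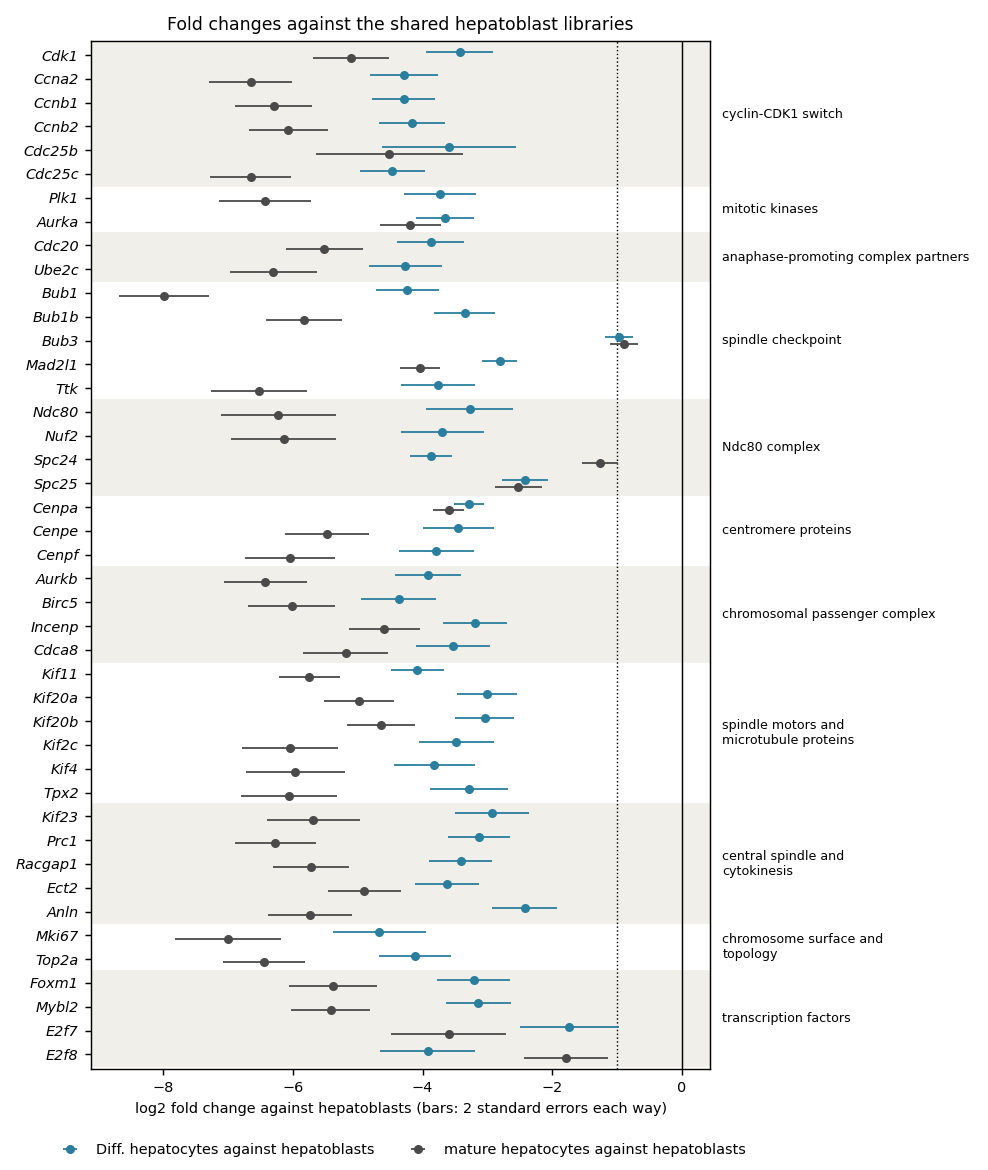
Log2 fold change of each of the 43 genes in Diff. hepatocytes and in mature hepatocytes, both against the same 4 hepatoblast libraries, with bars of 2 standard errors each way and a dotted line at -1. The points run from -4.67 (Mki67) to -0.97 (Bub3) in Diff. hepatocytes and from -7.99 (Bub1) to -0.90 (Bub3) in mature hepatocytes.

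Set directly against each other, Diff. hepatocytes kept more of most mitotic transcripts than mature hepatocytes did. Of the 43 genes 36 were called higher in Diff. hepatocytes, where 20.2% of all tested genes were, and 2 were called lower, where 15.6% were. The median log2 fold change was 2.03, beside 0.09 for all tested genes. The largest differences were in Bub1 at 3.75 ± 0.40, Anln at 3.32 ± 0.32 and Prc1 at 3.14 ± 0.31, the kinase of the checkpoint, the contractile ring scaffold and the midzone bundler (adjusted p 2.54e-06, 9.14e-07 and 1.36e-06, edgeR's quasi-likelihood test). The smallest difference among those called was that of Mad2l1, 1.23 ± 0.15. Without Diff. hepatocyte replicate 1, the highest of its group for 41 of the 43 genes, 35 were called higher. Of all tested genes 18.9% were, and the median of the 43 was 1.71. Ect2 went from 1.27 to 0.89 and was no longer called. With the fold threshold placed inside the test (edgeR's glmTreat) 27 were called higher, where 13.3% of all tested genes were. Markers of other cell types also differed between Diff. and mature hepatocytes. Called higher in Diff. hepatocytes were 7 of 9 mesenchymal markers (median log2 fold change 4.89), 4 of 7 bile duct markers (3.60) and 6 of 6 megakaryocyte markers (6.43). Called lower were 5 of 12 macrophage markers (-1.15) and 8 of 9 endothelial markers (-3.08). Beside these stand the 20.2% and 15.6% of all tested genes called higher and lower. Their sums in Diff. and mature hepatocytes were 1217 to 2958 and 51.9 to 74.1 CPM for the mesenchymal list, 92.3 to 286 and 15.8 to 41.2 CPM for the bile duct list, 23.5 to 68.7 and 4.41 to 6.03 CPM for the megakaryocyte list, and 30.6 to 195 and 179 to 337 CPM for the macrophage list. The endothelial list summed to 31.9 to 38.0 CPM in Diff. and 141 to 252 CPM in mature hepatocytes. The part of these markers in the mitotic levels was not tested.

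The exceptions were spread over several role lists. Spc24 was lower in Diff. than in mature hepatocytes by -2.60 ± 0.16 and E2f8 by -2.14 ± 0.36 (adjusted p 1.31e-08 and 1.49e-04, edgeR's quasi-likelihood test), with no overlap of the groups for either gene, a separation in this direction seen for 29.2% of all tested genes. The other 5 genes were not called. Bub3 differed by -0.07 ± 0.11, with an interval of 2 standard errors each way of -0.29 to 0.15. Spc25 differed by 0.11 ± 0.18, interval -0.26 to 0.47, and Cenpa by 0.31 ± 0.12, interval 0.08 to 0.55. Aurka differed by 0.54 ± 0.24, interval 0.06 to 1.01, and Cdc25b by 0.92 ± 0.59, interval -0.26 to 2.09. The interval of Bub3 leaves little room for a difference under TMM scaling alone. With library totals Bub3 differed by 0.45, beside a median of 0.62 for all tested genes. The interval of Cdc25b reaches from a small decrease to a rise of over 2 log2 units.

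**Figure D3:**
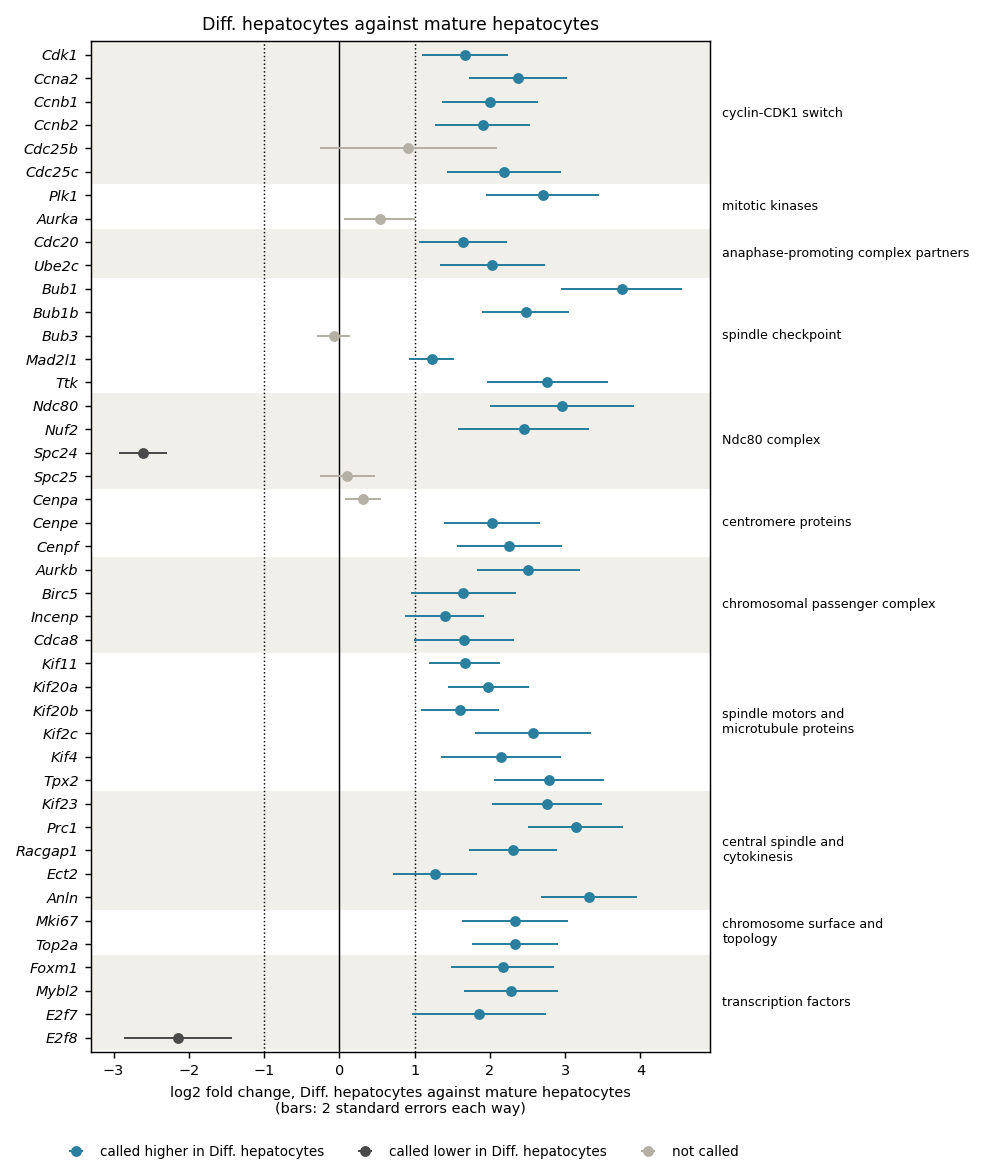
Log2 fold change of the 43 genes in Diff. hepatocytes against mature hepatocytes, with bars of 2 standard errors each way and dotted lines at -1 and 1. Most genes lie to the right, 36 of them called higher in Diff. hepatocytes, the 5 grey genes were not called, and Spc24 at -2.60 and E2f8 at -2.14 lie to the left.

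**Figure D4:**
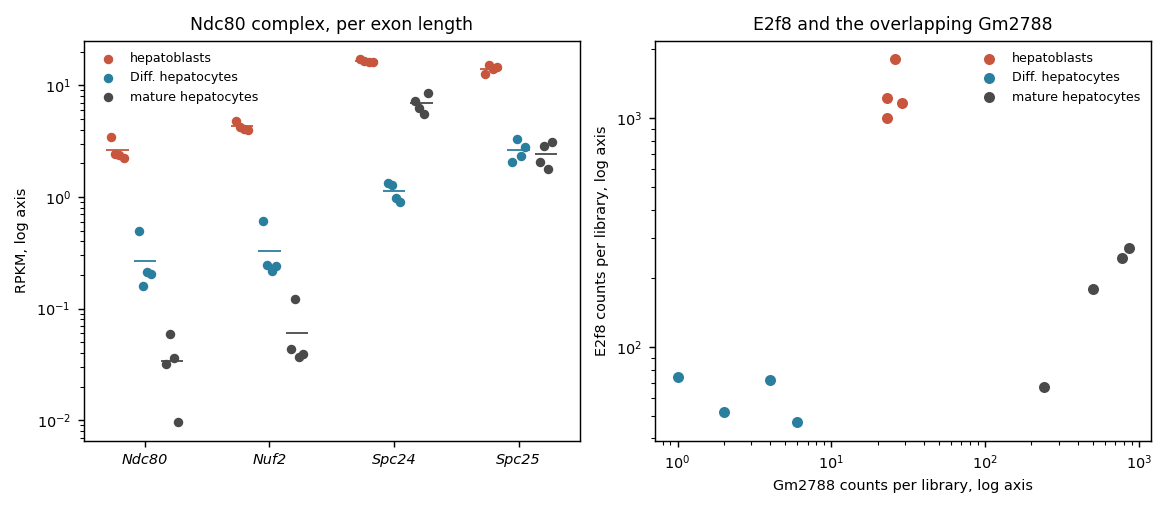
Left, the level of the 4 Ndc80 complex subunits per exon length (RPKM, log axis) in each library, with a line at each group's mean. Mature hepatocytes keep 6.90 RPKM of Spc24 but 0.0341 RPKM of Ndc80. Right, counts of E2f8 against counts of Gm2788 in each library, both on log axes, where the mature libraries are the only ones with more Gm2788 than E2f8.

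Per length, the 43 genes kept much of their order between groups. In hepatoblasts Mki67, Cdc20, Ccnb2 and Top2a led with 62.6, 52.9, 44.5 and 41.5 RPKM, and E2f7 was the lowest with 1.14 RPKM. In Diff. hepatocytes Bub3 led with 4.65 RPKM, ahead of Cdc20 with 3.59 RPKM. In mature hepatocytes Spc24 with 6.90 RPKM, Bub3 with 4.89 RPKM, Spc25 with 2.44 RPKM and E2f8 with 2.22 RPKM led, and Cdc25c was the lowest with 0.0263 RPKM. The rank correlation of the levels over the 43 genes was 0.831 between hepatoblasts and Diff. hepatocytes, 0.660 between hepatoblasts and mature hepatocytes and 0.757 between Diff. and mature hepatocytes, a description over genes that share libraries and exon lengths.

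Both replicate 1 libraries carried more of these transcripts than the rest of their groups. How many of all tested genes were highest in replicate 1 is not given. The counts below therefore cannot show a trait particular to the 43 genes. Hepatoblast replicate 1 was the highest of its group for 34 of the 43 genes, with a median ratio to the mean of the others of 1.19 and a range from 0.865 for Spc25 to 4.42 for Cdc25b. It was not the highest for Cdc25c, Bub1, Ttk, Spc25, Cenpa, Kif2c, Ect2, Anln and Foxm1. The erythroid markers were higher there than in the mean of the other libraries for 14 of 14 genes and the early haematopoietic and granulocytic ones for 10 of 10, while the 12 hepatoblast and hepatocyte markers summed to 66657 CPM against 90266 to 112469 CPM. In Diff. hepatocytes replicate 1 was the highest for 41 of the 43 genes, all but Spc25 and E2f8, with a median ratio of 2.21 and a range from 0.739 for Spc25 to 2.62 for Nuf2. The macrophage markers were higher there than in the mean of the other Diff. libraries for 12 of 12 genes, the erythroid markers for 11 of 14, with a median log2 ratio of 1.22 beside 1.14 for the 43 genes, the mesenchymal markers for 7 of 9 and the bile duct markers for 6 of 7. The summed erythroid level was 110.0 CPM there and 85.6 to 116 CPM in the others, and 78.1 CPM of the former were Tfrc, the transferrin receptor, which dividing cells of many kinds carry. Without both replicate 1 libraries 42 of the 43 genes were called lower in Diff. hepatocytes, as with them, and the median log2 fold change was -3.83. The part of the other cell types in these levels was not tested.

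**Figure D5:**
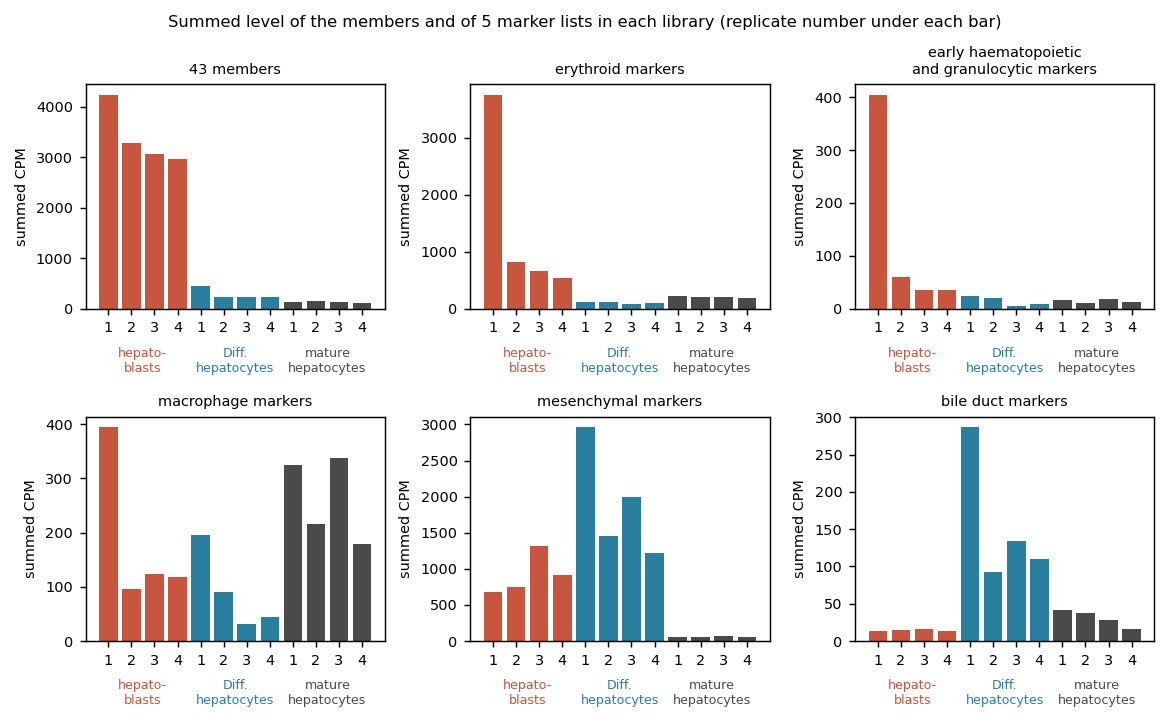
Summed CPM of the 43 genes and of 5 lists of marker genes in each of the 12 libraries, with the replicate number under each bar and bars coloured by group. Hepatoblast replicate 1 has the tallest bar for the 43 genes, at 4231 CPM, and for the erythroid, early haematopoietic and granulocytic, and macrophage markers, and Diff. hepatocyte replicate 1 has the tallest bar of its group for the 43 genes, at 440 CPM, and for the mesenchymal, bile duct and macrophage markers.

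The rest of the mitotic machinery was followed in 140 further genes, grouped by complex or step. In Diff. hepatocytes 91 of them were called lower than in hepatoblasts and 1 higher, where 14% and 14.9% of all tested genes were, and 48 were not called, with a median log2 fold change of -1.66. In mature hepatocytes 92 were called lower and 2 higher, where 24.7% and 20.1% of all tested genes were, with a median of -1.86. Against mature hepatocytes, Diff. hepatocytes had 51 called higher and 7 lower, where 20.2% and 15.6% of all tested genes were. Without both replicate 1 libraries the Diff. hepatocytes had 87 called lower and 2 called higher, where 14.2% and 14.9% of all tested genes were. The mature hepatocytes then had 91 and 2, where 24.7% and 20.8% were.

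Condensin, centromere, spindle and centriole genes were mostly called lower, beside 14% of all tested genes in Diff. and 24.7% in mature hepatocytes. All 8 condensin genes, which compact chromosomes, were lower in Diff. hepatocytes, led by Ncapg at -3.94 ± 0.28, Ncapg2 at -3.59 ± 0.18 and Ncaph at -3.44 ± 0.17. In mature hepatocytes 7 were lower, and Ncaph2 at -0.62 ± 0.09 was not called. Of 22 genes of the inner centromere network and the KNL1 and MIS12 complexes, the platform on which the Ndc80 complex sits, 19 were lower in Diff. hepatocytes, with Cenpm at -4.27 ± 0.41, Cenph at -4.14 ± 0.30 and Cenpp at -3.93 ± 0.36 the largest. Mis12, Cenpc1 and Cenpo were not called there, at -0.15 ± 0.12, -0.93 ± 0.13 and -0.67 ± 0.16. Of 28 genes of spindle assembly and further kinesins 23 were lower, led by Kif15 at -4.40 ± 0.29, Hmmr at -4.15 ± 0.26 and Nusap1 at -3.79 ± 0.33, while Numa1, a spindle pole protein that interphase nuclei also hold, had -0.44 ± 0.10 and was not called. Of 6 centriole duplication genes 5 were lower, with Stil at -3.36 ± 0.21, Plk4, the kinase that starts duplication, at -3.05 ± 0.23 and Sass6 at -2.56 ± 0.21.

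Checkpoint partners and cohesin genes were mixed, beside 14% of all tested genes called lower in Diff. hepatocytes. Of 11 genes of the RZZ and Ska complexes and checkpoint partners 7 were lower in Diff. hepatocytes, led by Ska1 at -4.33 ± 0.36, Kntc1 at -4.01 ± 0.27 and Zwilch at -3.84 ± 0.32. Zwint, a kinetochore docking protein, Mad1l1, the anchor of Mad2, Zw10 and Mad2l1bp were not called, at 0.68 ± 0.11, 0.93 ± 0.13, -0.45 ± 0.11 and 0.60 ± 0.19. Of 11 genes of cohesin and of its cleavage 8 were lower, led by Espl1, the protease separase, at -4.22 ± 0.34, Esco2 at -4.13 ± 0.34 and Cdca5 at -3.49 ± 0.25. Pttg1, the separase inhibitor securin, had 10.96, 13.7, 13.7 and 13.3 in hepatoblasts, 9.43, 12.7, 10.7 and 10.5 in Diff. hepatocytes and 23.7, 26.8, 25.5 and 28.9 in mature hepatocytes. The mature libraries were above all others, and Pttg1 was called higher there, 1.02 ± 0.12, and not called in Diff. hepatocytes, -0.25 ± 0.12 (adjusted p 2.91e-06 and 0.0769, edgeR's quasi-likelihood test).

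The anaphase-promoting complex and the cleavage furrow were followed as well, beside 14% of all tested genes called lower in Diff. hepatocytes. Of 16 genes of the anaphase-promoting complex, with its second activator Fzr1 and its inhibitor Fbxo5, 6 were lower in Diff. hepatocytes, with Fbxo5 at -3.02 ± 0.29, Anapc11 at -1.45 ± 0.12 and Anapc5 at -1.32 ± 0.10 the largest, and the other 10 lay between -0.90 (Anapc15) and 0.89 (Anapc16). Beside these values, Cdc20 and Ube2c changed by -3.88 and -4.27 on the log2 scale. Of 14 genes of the cleavage furrow and abscission 3 were lower, a share near the 14% of all tested genes. They were Cit, the citron kinase of the midbody, at -3.58 ± 0.17, Diaph3 at -2.89 ± 0.37 and Cep55 at -2.56 ± 0.28. Rhoa, the target of Ect2, Myh9 and Rab35, a GTPase of late cytokinesis and of apical membrane traffic, were not called, at -0.38 ± 0.10, 0.37 ± 0.12 and 0.13 ± 0.12.

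Among the regulators of Cdk1, Cdc25a kept most of its level in Diff. hepatocytes, where 14% of all tested genes were called lower. Of 8 genes of Cdk1 inhibition, the PP2A switch and Cdc25a, 3 were lower in Diff. hepatocytes, the kinase Mastl, which restrains PP2A, at -2.27 ± 0.21, and Pkmyt1 at -2.18 ± 0.18 and Wee1 at -1.93 ± 0.47, kinases that hold Cdk1 inactive. Cdc25a, the Cdc25 phosphatase that also acts at the entry to S phase, had 59.3, 44.7, 45.0 and 40.7 in hepatoblasts, 37.9, 38.9, 37.1 and 32.2 in Diff. hepatocytes and 6.93, 5.90, 6.42 and 8.19 in mature hepatocytes. The Diff. libraries were close under the hepatoblasts and well over the mature libraries. Cdc25a was not called in Diff. hepatocytes at -0.38 ± 0.12, and was lower in mature hepatocytes at -2.79 ± 0.14 and higher in Diff. than in mature hepatocytes at 2.41 ± 0.14 (adjusted p 0.0190, 1.02e-09 and 7.34e-09, edgeR's quasi-likelihood test). Cdc25b and Cdc25c, for comparison, changed by -3.60 ± 0.52 and -4.47 ± 0.25 in Diff. hepatocytes.

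Of 16 MuvB, pocket protein and E2F genes 9 were lower and 1 higher in Diff. hepatocytes, where 14% and 14.9% of all tested genes were. The largest decreases were those of E2f2, an activating E2F, at -5.04 ± 0.38, Rbl1, the pocket protein p107, at -2.83 ± 0.17 and E2f1 at -1.95 ± 0.23. Rbl2, the pocket protein p130, which with MuvB forms the repressor complex of resting cells, had 11.7, 6.27, 6.99 and 7.66 in hepatoblasts, 18.8, 21.8, 19.5 and 23.1 in Diff. hepatocytes and 42.6, 42.999, 38.2 and 51.8 in mature hepatocytes. The 3 groups did not overlap, in rising order, and Rbl2 was called higher in Diff. hepatocytes at 1.35 ± 0.17 and in mature hepatocytes at 2.43 ± 0.18 (adjusted p 1.85e-05 and 3.74e-08, edgeR's quasi-likelihood test). The MuvB core genes Lin9 and Lin54 were lower in Diff. hepatocytes at -1.62 ± 0.13 and -1.55 ± 0.11, while Lin37 and Lin52 were not called, at -0.33 ± 0.13 and -0.26 ± 0.17.

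For scale, 24 genes of DNA replication, the phase before mitosis, were set beside the mitotic genes. In Diff. hepatocytes 23 of them were lower than in hepatoblasts, where 14% of all tested genes were, with a median log2 fold change of -2.96. In mature hepatocytes 22 were lower and 1 higher, where 24.7% and 20.1% of all tested genes were. Their median there was -3.54, against -5.74 for the 43 mitotic genes. Between Diff. and mature hepatocytes 8 replication genes were called higher in Diff. hepatocytes and 1 lower, where 20.2% and 15.6% of all tested genes were. The median was 0.57 against 2.03, and the difference between the lists was not tested.

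The promoters of the mitotic genes share short sequences that the MuvB complexes and the factor NF-Y are known to read. The CHR element, written TTTGAA, and the CCAAT box were searched on both strands in RefSeq promoter windows of 300 bases (GRCm38.p6), from 250 bases before to 50 after the start, in which occurrences may overlap. Windows were matched for 35 of the 43 genes. TTTGAA was found for 26 of the 35 genes (74.3%) against 20.2% of all 27025 genes with a window, and CCAAT for 27 of 35 (77.1%) against 41.1%. Both were present for 22 of 35 (62.9%) against 7.97%, and at least 2 CCAAT boxes for 18 of 35 (51.4%) against 13.3%. GCGGGAA, a form of the E2F site, was present for 1 of 35, E2f7, against 5.29%. The 26 genes with TTTGAA had a median log2 fold change of -3.58 in Diff. hepatocytes and the 9 without it -3.60.

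Below are the 200 bases before the start of 8 of the 22 genes with both elements, chosen after their values were seen to show a kinase, anaphase-promoting complex partners, a motor, both of the most abundant genes, and the exceptions Bub3 and E2f8. Sequences are from RefSeq, GRCm38.p6, read 5′ to 3′ on the strand of the gene. Capitals mark TTTGAA or its complement TTCAAA and CCAAT or its complement ATTGG.
Cdk1, chr10:69352913-69353112, - strand: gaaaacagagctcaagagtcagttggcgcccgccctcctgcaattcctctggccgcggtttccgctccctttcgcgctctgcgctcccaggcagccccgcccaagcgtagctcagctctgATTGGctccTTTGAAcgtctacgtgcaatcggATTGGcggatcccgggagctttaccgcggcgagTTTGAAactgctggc
Cdc20, chr4:118437344-118437543, - strand: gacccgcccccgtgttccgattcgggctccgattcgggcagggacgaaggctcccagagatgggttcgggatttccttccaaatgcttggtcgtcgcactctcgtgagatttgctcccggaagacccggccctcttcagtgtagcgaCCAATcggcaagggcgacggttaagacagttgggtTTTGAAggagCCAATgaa
Ube2c, chr2:164769729-164769928, + strand: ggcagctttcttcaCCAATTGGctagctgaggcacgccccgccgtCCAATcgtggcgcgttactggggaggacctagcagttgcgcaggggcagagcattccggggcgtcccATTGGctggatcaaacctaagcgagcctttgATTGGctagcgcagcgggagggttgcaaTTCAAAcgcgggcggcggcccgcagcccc
Kif11, chr19:37376182-37376381, + strand: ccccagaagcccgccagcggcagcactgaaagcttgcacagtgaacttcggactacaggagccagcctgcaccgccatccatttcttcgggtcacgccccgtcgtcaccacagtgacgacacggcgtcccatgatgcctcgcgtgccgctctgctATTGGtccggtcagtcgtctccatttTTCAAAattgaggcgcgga
Mki67, chr7:135716380-135716579, - strand: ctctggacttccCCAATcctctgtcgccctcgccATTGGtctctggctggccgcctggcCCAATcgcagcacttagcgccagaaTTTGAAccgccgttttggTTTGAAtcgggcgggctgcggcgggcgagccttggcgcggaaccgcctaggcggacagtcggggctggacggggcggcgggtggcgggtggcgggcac
Top2a, chr11:99024190-99024389, - strand: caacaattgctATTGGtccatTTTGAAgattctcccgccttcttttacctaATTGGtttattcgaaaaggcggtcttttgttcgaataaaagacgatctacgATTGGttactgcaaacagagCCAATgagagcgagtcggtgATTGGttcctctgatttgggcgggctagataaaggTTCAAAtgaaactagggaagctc
Bub3, chr7:131560170-131560369, + strand: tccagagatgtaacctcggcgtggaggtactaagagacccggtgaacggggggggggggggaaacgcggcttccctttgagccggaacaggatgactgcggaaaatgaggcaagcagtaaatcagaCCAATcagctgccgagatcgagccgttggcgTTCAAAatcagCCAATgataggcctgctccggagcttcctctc
E2f8, chr7:48881597-48881796, - strand: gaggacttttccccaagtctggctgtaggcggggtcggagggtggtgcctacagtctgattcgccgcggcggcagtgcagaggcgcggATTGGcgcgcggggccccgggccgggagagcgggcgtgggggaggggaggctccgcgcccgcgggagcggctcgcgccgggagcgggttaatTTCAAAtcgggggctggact

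Counted from the start of the gene, with -1 the last base before it, positions are those of the leftmost letter of each match. For a match of the complement, TTCAAA or ATTGG, this is the last letter of TTTGAA or CCAAT. In Cdk1 TTTGAA stands at -71 and -15. CCAAT stands there as ATTGG at -208, before the bases shown, and at -80 and -48. Cdc20 has TTTGAA at -18 and CCAAT at -53 and -8. Ube2c carries the complement TTCAAA at -29, with CCAAT on both strands overlapping in its first block. Top2a carries TTTGAA at -179 and the complement TTCAAA at -23. Bub3, the gene that was not called against hepatoblasts, has the complement TTCAAA at -43 and CCAAT at -74 and -32 from the start shown. From its other RefSeq start the same matches stand at -167, -198 and -156. E2f8 has the complements TTCAAA at -20 and ATTGG at -112. A match says only that these letters stand in the window.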

How the data were processed

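Poly(A) RNA of 12 libraries was sequenced with 75-base single reads. The authors mapped the reads to GRCm38 with STAR 2.5.2b, counted the genes of Ensembl release 92 and deposited raw counts per gene, without normalization. The methods call the libraries strand-specific, and the strand setting of the counts is not given in the sources used here. Gene symbols, positions and exon lengths came from GENCODE, and 53620 of 53715 identifiers matched.

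The 43 genes, the marker lists and the other gene lists were chosen with earlier results of these data known. Every member is named with a value, in the order of its role. Within each role list, values per library are given for the highest gene in hepatoblasts, for the largest and smallest change in Diff. hepatocytes, and for genes that differed from most. From the other lists up to 3 called genes in each direction are named, with uncalled genes of a complex that holds a member, and Cdc25a, Numa1, Rhoa, Myh9 and Rab35 were chosen after their values were seen.

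The 17779 genes that exceeded 10 counts in at least 1 library were fitted in R 4.3.3 with edgeR 4.0.16 (TMM, quasi-likelihood test, group as the only term, 12 libraries), with Benjamini-Hochberg adjustment over all of them. Standard errors were taken from the fold change and the F statistic. CPM used TMM-scaled library sizes with no prior count. The fit was tested on simulated data first. Alternatives were DESeq2 1.42.0, other scalings, filters and thresholds, the replicate block, fewer libraries in the fit and leaving out each library. The replicates are biological by the study's design text.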

Additional observations from a re-analysis of the deposited data

Results flagged for a closer look

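A library of 4 was flagged where its gap to the nearest other library, divided by the range of the group, exceeded 0.829. Chance flags about 1 in 20 groups, or 6.6 of the 132 groups of 4 values tested. The genes share libraries, so 1 library can flag many at once, and this number is no test of an excess. In all, 28 were flagged. Of these, 18 lay above the rest in Diff. hepatocyte replicate 1 and 8 lay above the rest in hepatoblast replicate 1.

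In Diff. hepatocyte replicate 1 the summed level of the 43 genes was 440 CPM against 224 to 237 CPM in the others. The genes flagged there were Top2a at 34.0 CPM, Cdk1 at 13.9 CPM, Prc1 at 12.7 CPM, Cenpf at 12.5 CPM, Cdc20 at 11.4 CPM and Racgap1 at 11.2 CPM. Kif11 at 9.21 CPM, Cdca8 at 8.86 CPM, Ect2 at 8.17 CPM, Aurka at 6.83 CPM, Birc5 at 6.57 CPM and Aurkb at 5.53 CPM were flagged too. So were Kif2c at 5.23 CPM, Kif4 at 5.19 CPM, Bub1 at 4.496 CPM, Nuf2 at 3.89 CPM and Ndc80 at 3.24 CPM.

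In hepatoblast replicate 1 the flagged genes were Mki67 at 1029 CPM against 474 to 533 CPM in the others, and Cdc25b at 63.2 CPM against 10.97 to 16.7 CPM. Ccnb2 at 76.7 CPM, Cdca8 at 73.8 CPM, Aurka at 59.3 CPM, Aurkb at 54.9 CPM, Spc24 at 44.3 CPM and Mybl2 at 40.6 CPM were flagged there as well. In mature hepatocytes Nuf2 was flagged above the rest in replicate 2, at 0.770 CPM from 12 counts, and Mad2l1 below the rest in replicate 1, at 2.81 CPM against 3.14 to 3.17 CPM.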

How the results depend on the processing

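The calls against hepatoblasts changed little. Leaving out each library in turn gave 42 to 43 genes called lower in Diff. hepatocytes, 42 in mature hepatocytes, and 35 to 36 higher and 2 lower in Diff. against mature hepatocytes, and DESeq2 gave 42, 42, and 36 and 2. Of all tested genes, DESeq2 called 14.3%, 24.9%, and 20.8% and 15.7% in the same order. With the fold threshold inside the test (glmTreat) 41 and 40 genes were called lower and 27 higher. Of all tested genes 8.08% and 17.4% were called lower there and 13.3% higher. E2f7 was lost in Diff. hepatocytes and Spc24 and E2f8 in mature hepatocytes. Library totals without TMM factors moved the median of all tested genes to -0.34 in Diff. and -1.0003 in mature hepatocytes against hepatoblasts and to 0.62 in Diff. against mature hepatocytes and called Bub3 lower in both hepatocyte groups, at -1.30 and -1.76, or 0.97 and 0.76 below that median. With at least 10 counts in every sample 30 of the 43 genes could be tested. Of these, 23 were called higher in Diff. than in mature hepatocytes, where 13.7% of all genes tested in that setting were. Summed levels by library totals were 4488 CPM in hepatoblasts and 97.7 CPM in mature hepatocytes, and as RPKM they were 670, 54.9 and 29.2 in hepatoblasts, Diff. and mature hepatocytes.

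Only log2 fold changes near 0 changed sign, all of Diff. against mature hepatocytes. Bub3 went from -0.07 to 0.45 with library totals and to 0.036 with at least 10 counts in every sample. Spc25 went from 0.11 to -0.030 without Diff. hepatocyte replicate 2 and -0.025 without mature hepatocyte replicate 3, in a range up to 0.23 without mature hepatocyte replicate 4. The cause was not tested.

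Replicate numbers were shared by the groups. The correlation of deviations between same-numbered hepatoblast and Diff. hepatocyte libraries was 0.36, -0.09, 0.36 and 0.30. Diff. hepatocyte replicates 1, 3 and 4 correlated best with the hepatoblast library of their own number, and replicate 2 did not. The main fit used no pairs. With the replicate block, 42, 42, and 36 and 2 genes were called, as without it. Of all tested genes 14.4%, 24.6%, and 20.1% and 15.6% were. Low counts limit the mature values most, with at most 3 counts of Cdc25c in any mature library.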
